A study of Mus musculus with 6 samples.

Results

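The interleukin-1 (IL-1) family ligands and receptors described here are 10 genes chosen by name and role, found in the count table by their symbols among 54532 genes. They are the agonist ligands Il1a, Il1b, Il18 and Il33, the soluble antagonists Il1rn and Il18bp, the signalling receptors Il1r1 and Il1rl1, the shared accessory chain Il1rap and the decoy receptor Il1r2. RNA was sequenced from mouse bone marrow-derived macrophages, cells grown from bone marrow in culture, of C57BL/6 animals aged 32 to 34 weeks. The XKO group carries the genotype Xbp1ΔMf, a deletion of the transcription factor gene Xbp1, and the XWT group carries Xbp1FL/FL, the floxed alleles, with 3 libraries in each group. Cells of both groups had been primed with lipopolysaccharide (LPS) and then held for 48 h in medium conditioned by wild-type primary hepatocytes, and no unprimed or unconditioned cells were analysed here. The promoter that drives the deletion is not named in the labels. Nor do they state that the 3 libraries of a group stem from different mice or cultures, and each p-value therefore reflects only library-to-library spread, which may be technical.

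IL-1α and IL-1β bind the receptor IL1R1, which then recruits the accessory chain IL1RAP and signals through the adaptor MyD88 and the IRAK kinases to NF-kB. IL1RN occupies the same receptor without signalling, IL1R2 captures ligand without a signalling domain, IL-18BP neutralises IL-18, and IL-33 signals through ST2, the product of Il1rl1. IL-1β and IL-18 are made as precursors that caspase-1 cleaves, whereas the precursor of IL-1α is already active. Macrophages stimulated with LPS are a textbook source of IL-1β.

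The windows of 250 bases before the transcription start are shown for the 3 genes that passed the test and for Il1b, which lies beside Il1a and did not pass it. RefSeq gives a window for all 10 genes, with 15 windows in all because some genes have several starts, and the one nearest to the start in the count table was taken (build GRCm38.p6). Each sequence runs 5′ to 3′ on the strand of the gene, and capitals mark a match to one of 7 motifs searched on both strands.
Il1a, chr2:129309973-129310222, minus strand: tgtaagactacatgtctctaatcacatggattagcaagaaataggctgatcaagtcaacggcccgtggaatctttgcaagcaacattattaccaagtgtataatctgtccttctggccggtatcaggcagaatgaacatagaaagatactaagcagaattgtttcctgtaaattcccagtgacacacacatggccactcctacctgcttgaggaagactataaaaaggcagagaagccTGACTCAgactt
Il1rn, chr2:24336610-24336859, plus strand: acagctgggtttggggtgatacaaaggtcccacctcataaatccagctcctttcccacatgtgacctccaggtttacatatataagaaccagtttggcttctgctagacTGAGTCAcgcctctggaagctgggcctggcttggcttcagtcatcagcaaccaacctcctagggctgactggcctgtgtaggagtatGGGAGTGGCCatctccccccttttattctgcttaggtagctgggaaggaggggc
Il1b, chr2:129371140-129371389, minus strand: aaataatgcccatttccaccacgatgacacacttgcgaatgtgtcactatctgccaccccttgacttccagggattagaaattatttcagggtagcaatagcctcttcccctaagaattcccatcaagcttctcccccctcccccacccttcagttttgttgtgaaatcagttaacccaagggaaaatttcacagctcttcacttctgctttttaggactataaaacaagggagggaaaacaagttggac
Il1rl1, chr1:40429320-40429569, plus strand: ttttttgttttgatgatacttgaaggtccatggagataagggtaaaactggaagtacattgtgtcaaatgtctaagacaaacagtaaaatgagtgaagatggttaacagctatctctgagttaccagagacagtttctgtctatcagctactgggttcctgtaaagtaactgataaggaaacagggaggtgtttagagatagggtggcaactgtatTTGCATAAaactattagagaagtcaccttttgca
The motifs were TGANTCA (the AP-1 site), TTGCNNAA (C/EBP), a loose NF-kB pattern (10 bases that begin with 3 G and end with 2 C), TGACGTG (an XBP1 element), TGACGTNA (CRE), TGATGNAA (C/EBP-ATF) and the interferon response pattern ISRE (a repeat of GAAA with any 2 bases between). TGANTCA occurred in the windows of Il1a, as TGACTCA at bases -12 to -6 from the start, and of Il1rn, as TGAGTCA at -141 to -135, and 6.75% of 32851 RefSeq windows of the same length hold it. The NF-kB pattern occurred in the Il1rn window at -54 to -45, as in 45.8% of all windows, and TTGCNNAA in the Il1rl1 window at -34 to -27, as in 9.56% of all. None of the 7 patterns was found in the Il1b window. TGACGTG was found in none of the 15 windows of the 10 genes, against 1.65% of all windows. A match describes letters in a window, and binding was not measured.

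The libraries held 29965384 to 30184033 counts in XKO and 28354866 to 30891729 in XWT. Xbp1 stood at 77.5 ± 1.58 CPM (a gene's counts relative to all counts of its library, with TMM scaling between libraries) in XKO and 149 ± 15.1 CPM in XWT (SD, n = 3 each), lower in 3 of 3 XKO libraries, with counts that include any reads outside the deleted part. Macrophage markers were abundant in both groups. Lyz2, Adgre1 and Csf1r, which encode lysozyme, F4/80 and the CSF1 receptor, averaged 14263, 5746 and 3642 CPM in XKO and 31120, 6610 and 3909 CPM in XWT. Of 8 macrophage markers 1 was lower (Lyz2, log2 fold change -1.13) and 0 higher, with a median log2 fold change of -0.17. At an unadjusted p under 0.05 in edgeR 4 were lower and 0 higher, and DESeq2 called 2 lower and limma-voom 1 lower, each with 0 higher. Lyz2 may share reads with its close copy Lyz1, which was not examined, and the cause of its lower level was not tested. On the first principal component XKO libraries lay at 21.05 to 23.65 and XWT 1 and XWT 2 at -25.6 and -28.4, while XWT 3 stood apart at -12.9. Values without XWT 3 are therefore given for the genes that passed the test. XWT 3 was not the only XWT library to differ, however. The mean chi-square per gene was 21.25 between XWT 1 and XWT 2, 21.1 between XWT 2 and XWT 3 and 23.82 between XWT 1 and XWT 3. Between XKO libraries it was 2.925 to 4.854, so the spread was larger in XWT.

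Of the 10 genes, 8 had enough counts to be tested, and 2 of these were higher in XKO (Il1a and Il1rn), 1 was lower (Il1rl1) and 5 did not pass (edgeR quasi-likelihood test, adjusted p under 0.05 over 14333 genes). Among all genes tested 14.0% were called, 6.00% higher and 7.99% lower. The 2 genes left out of the test, Il33 and Il1r2, were at or near 0 in every library. The median log2 fold change of the 8 genes was 0.14, against 0.0014 over all tested genes, and their median absolute change was 0.47, against 0.17. For 5 of the 8 genes all libraries of one group lay above all of the other, as for 36.1% of all tested genes. The authors' deposited table has an adjusted p under 0.05 for the same 3 genes, at 0.0049 for Il1a, 3.71e-08 for Il1rn and 0.00196 for Il1rl1. It has such a value for 9.02% of the 23413 genes to which it gives a log2 fold change, a wider set than that tested here. In bulk RNA, fewer cells of a type and less RNA per cell cannot be told apart.

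**Figure D1:**
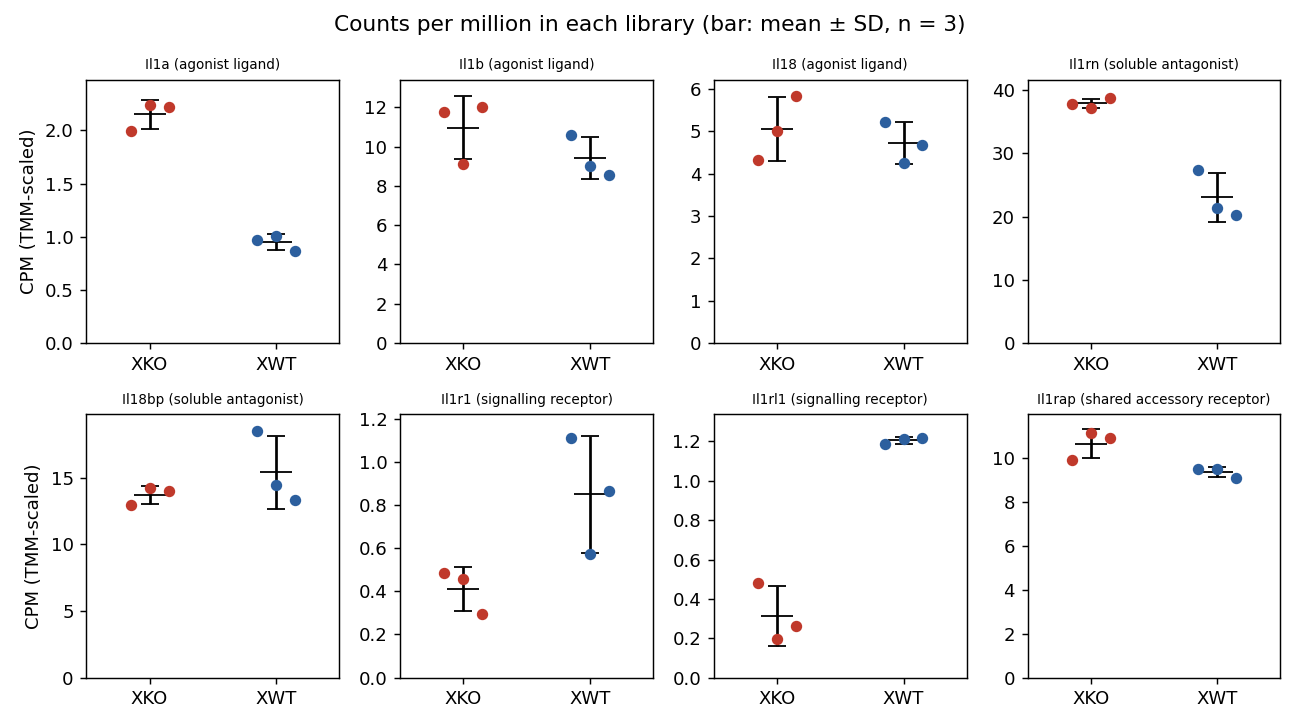
Level (CPM, TMM-scaled, vertical axis from 0) of the 8 tested genes in each of 3 XKO and 3 XWT libraries, with points for libraries and bars for the mean ± SD. Il1a and Il1rn sit higher in every XKO library than in any XWT library, and Il1rl1 sits lower.

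Among the agonist ligands, Il1a was the 1 gene that rose. Il1a (ENSMUSG00000027399, protein-coding, chromosome 2 from 129299610 to 129309972, minus strand) had 2.00, 2.24 and 2.22 CPM in XKO, from 62, 69 and 68 counts, against 0.96, 1.01 and 0.86 CPM in XWT, from 26, 30 and 27 counts. All 3 XKO libraries lay above all 3 XWT libraries. Its log2 fold change came to 1.18 (standard error 0.23, 95% interval 0.68 to 1.69), a 2.27-fold higher level (edgeR adjusted p = 0.00459). Without XWT 3 it was 1.12 (edgeR adjusted p = 0.0056). The gene is of low abundance here, with a mean CPM above that of 19.4% of tested genes, and its absolute change was above that of 96.4% of them. On the opposite strand Gm14023, a transcript with 2 to 11 counts per library, overlaps Il1a over 8217 bases, and reads of the pair cannot be told apart if the counting ignored strand.

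Il1b, the cytokine most associated with inflammasome output, lies with Il1a in a stretch of 71.53 kb on the same strand (ENSMUSG00000027398, chromosome 2 from 129364570 to 129371139). It had 11.8, 9.13 and 12.0 CPM in XKO, against 10.6, 9.02 and 8.57 CPM in XWT. XKO 2 lay among the XWT libraries, so the groups overlapped. The log2 fold change of 0.22 had a 95% interval of -0.06 to 0.51 and did not pass (edgeR adjusted p = 0.27), an interval that still holds a rise of up to 0.51.

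Il18, encoding a cytokine that induces interferon gamma in lymphocytes (ENSMUSG00000039217, chromosome 9 from 50554827 to 50581840, plus strand), had 134, 154 and 179 counts in XKO, against 141, 126 and 146 counts in XWT. By counts XKO 2 and XKO 3 lay above every XWT library. In CPM only XKO 3 did, and the other XKO libraries lay among the XWT libraries. The log2 fold change was 0.10 (95% interval -0.24 to 0.45, edgeR adjusted p = 0.701). Its sign depended on 1 library, since without XKO 3 the value was -0.016. On the opposite strand Il18 overlaps Bco2 over 355 bases, a gene with 41 to 51 counts per library. It also overlaps Tex12 there over 4507 bases, a gene with 0 to 5 counts per library. Whether the counting used strand is not stated.

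Il33, an alarmin gene known mainly from epithelial, endothelial and stromal cells (ENSMUSG00000024810, chromosome 19 from 29925114 to 29960718, plus strand), had 0, 1 and 1 counts in XKO and 1, 0 and 0 counts in XWT. These are under 3 counts per library, which correspond to 0.0966 to 0.0979 CPM in XKO and 0.096 to 0.111 CPM in XWT, so no fold change is given. The ligand of ST2 was thus not detectable beyond single reads at this depth in either group.

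Of the soluble antagonists, Il1rn rose and Il18bp did not pass the test. Il1rn, the receptor antagonist gene (ENSMUSG00000026981, chromosome 2 from 24336853 to 24351494, plus strand), had 37.9, 37.2 and 38.7 CPM in XKO, against 27.4, 21.4 and 20.3 CPM in XWT. The XKO libraries had a coefficient of variation of 2.02% and all lay above the XWT libraries. The XWT libraries had a coefficient of variation of 16.7%, with XWT 1 as the highest. Il1rn thus had a log2 fold change of 0.72 (standard error 0.10, 95% interval 0.50 to 0.94), a 1.65-fold higher level (edgeR adjusted p = 0.000387). It was 0.64 without XWT 3 (edgeR adjusted p = 0.00108) and 0.86 without XWT 1 (edgeR adjusted p = 6.14e-05). Secreted and intracellular forms of the antagonist share this gene, and the counts per gene do not separate them.

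Il18bp (ENSMUSG00000070427, chromosome 7 from 102014885 to 102018690, minus strand) had 12.9, 14.2 and 14.0 CPM in XKO, against 18.5, 14.4 and 13.3 CPM in XWT. The 2 groups overlapped, and XWT 1 was the highest library. The log2 fold change was -0.17 (95% interval -0.43 to 0.10, edgeR adjusted p = 0.382) and came to -0.018 without XWT 1. The gene shares 80 bases with Numa1 on the opposite strand, a gene with 9338 to 10990 counts per library, and whether the counting used strand is not stated.

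Among the receptors, Il1rl1 fell, Il1r1 was lower without passing the test, Il1rap did not pass, and Il1r2 had no read. Il1rl1, which encodes the IL-33 receptor ST2 (ENSMUSG00000026069, chromosome 1 from 40429570 to 40465415, plus strand), had 15, 6 and 8 counts in XKO, against 32, 36 and 38 counts in XWT. In CPM these were 0.48, 0.19 and 0.26 in XKO and 1.19, 1.21 and 1.22 in XWT. Every XKO library was lower than every XWT library, and XKO 1 was the highest of its group. This was a log2 fold change of -1.93 (standard error 0.37, 95% interval -2.73 to -1.12), a 3.81-fold lower level (edgeR adjusted p = 0.00405), and -1.92 without XWT 3 (edgeR adjusted p = 0.00534). It lay between -2.38 and -1.68 with any 1 library left out, and was called each time. Membrane-bound and soluble ST2 come from the same gene and are not separated by these counts.

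Il1r1, the signalling receptor for IL-1α and IL-1β (ENSMUSG00000026072, chromosome 1 from 40225080 to 40317257, plus strand), had 15, 14 and 9 counts in XKO, against 30, 17 and 27 counts in XWT. The counts did not overlap, though XKO 1 and XWT 2 lay 2 counts apart. Its log2 fold change of -1.03 (standard error 0.39, 95% interval -1.87 to -0.20) did not pass, with an unadjusted p of 0.0184 and an adjusted p of 0.0896 in edgeR. It was not called in any of 15 alternatives either, among which DESeq2 gave an adjusted p of 0.183. The stricter thresholds among them (0.01, or at least 1.5-fold) reuse the main fit and could not have called it.

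Il1rap, the chain that IL1R1 and ST2 share (ENSMUSG00000022514, chromosome 16 from 26581704 to 26730117, plus strand), had 9.92, 11.1 and 10.9 CPM in XKO, against 9.50, 9.49 and 9.08 CPM in XWT. The XKO libraries were all higher by a narrow margin, with a log2 fold change of 0.19 (95% interval -0.04 to 0.42) that did not pass (edgeR adjusted p = 0.25). Il1r2, the decoy receptor (ENSMUSG00000026073, chromosome 1 from 40074079 to 40125231, plus strand), had 0 counts in all 6 libraries, which allows up to 3 counts per library, or 0.0966 to 0.0979 CPM in XKO and 0.096 to 0.111 CPM in XWT. The ratio of Il1r2 to Il1r1 could therefore not be formed.

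**Figure D2:**
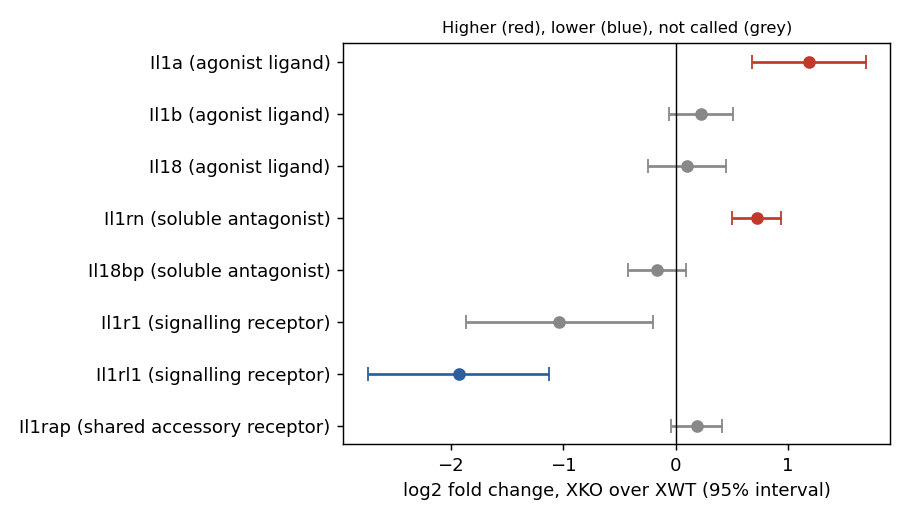
Log2 fold change of XKO over XWT (horizontal axis) with its 95% interval for the 8 tested genes, ordered by role, with red for higher, blue for lower and grey for not called at an adjusted p under 0.05. Il1a (1.18) and Il1rn (0.72) lie right of 0, and Il1rl1 (-1.93) lies left of it. The intervals of Il1r1 (-1.87 to -0.20) and Il1rl1 (-2.73 to -1.12) are the widest. Il1r1 rests on 9 to 30 counts per library and Il1rl1 on 6 to 38.

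Levels can be set side by side between genes only per gene length, in the deposited FPKM (fragments scaled by gene length and library total). In XKO, Il1rn was the most abundant of the 10 genes at 6.82 ± 0.14 FPKM, followed by Il1b at 5.72 ± 0.83, Il18 at 4.88 ± 0.74 and Il18bp at 4.51 ± 0.22 FPKM (SD, n = 3). The ranges of neighbours overlapped from Il1b to Il18bp, while that of Il1rn lay above the range of Il1b. In XWT the same 4 genes came first in another order, Il18bp at 5.09 ± 0.92, Il1b at 4.92 ± 0.57, Il18 at 4.57 ± 0.48 and Il1rn at 4.16 ± 0.70 FPKM (SD, n = 3), and the ranges of all neighbours among them overlapped. Il1a stood at 1.09 ± 0.068 FPKM in XKO and 0.48 ± 0.040 FPKM in XWT, above Il1rap (0.93 ± 0.057 FPKM) in XKO and below it (0.82 ± 0.025 FPKM) in XWT. The receptors with their own ligands were the lowest of the detected genes: Il1r1 had 0.064 ± 0.016 FPKM in XKO and 0.133 ± 0.042 FPKM in XWT, and Il1rl1 0.045 ± 0.022 FPKM in XKO and 0.175 ± 0.0021 FPKM in XWT. The ranges of Il1r1 and Il1rl1 overlapped each other in both groups. Il1rl1 in XWT rested on 32, 36 and 38 counts, so its small SD understates the counting error.

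**Figure D3:**
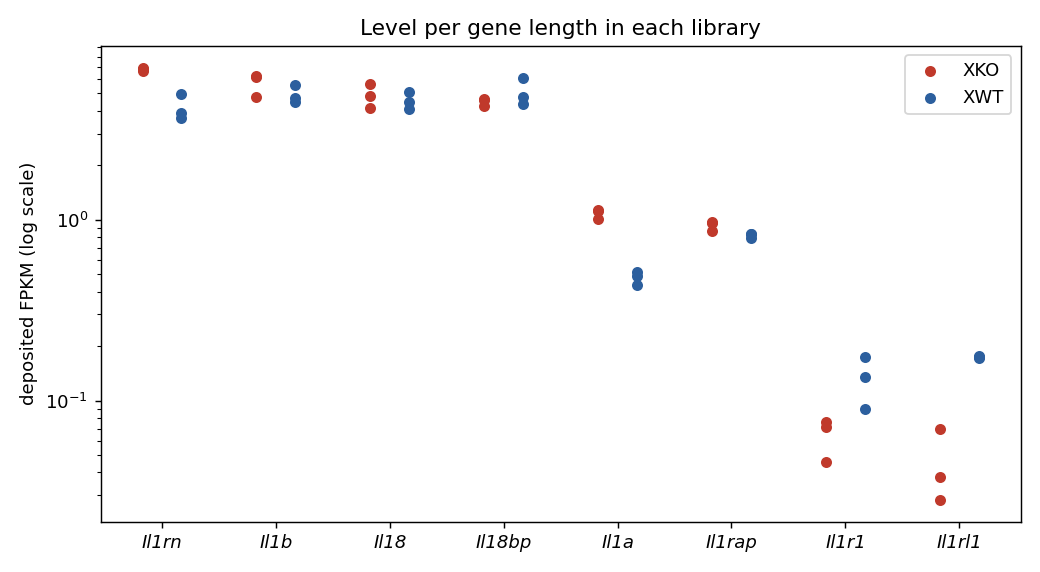
Deposited FPKM (log scale, vertical axis) of the 8 tested genes in each library, XKO left of XWT, ordered by the XKO mean, with Il33 and Il1r2 not drawn. The 4 genes at the left lie between 3.64 and 6.96 FPKM and the 2 receptors at the right under 0.18 FPKM.

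The balance between ligands and their inhibitors was followed as log2 ratios of counts within a library, which do not depend on the scaling between libraries. Il1rn over Il1b was 1.80 ± 0.19 in XKO and 1.29 ± 0.073 in XWT, a difference of 0.51, with every XKO library higher. Il1rn over Il1a went the other way, at 4.13 ± 0.097 in XKO and 4.57 ± 0.21 in XWT, a difference of -0.44, with every XKO library lower. Il1a over Il1b was -2.33 ± 0.28 in XKO and -3.29 ± 0.15 in XWT, a difference of 0.96 with no overlap. Il1a over Il1b follows from the ratios before it and is no separate result. In these libraries Il1rn counts were higher relative to Il1b and lower relative to Il1a. Each of these 3 differences had p = 0.1, the smallest that an exact two-sided permutation test of 3 against 3 can give (adjusted p = 0.125 over 5 ratios), so none can pass a threshold of 0.05 in this design.

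For the IL-18 pair, Il18bp over Il18 was 1.45 ± 0.17 in XKO and 1.70 ± 0.17 in XWT (SD, n = 3 each), with overlapping groups (exact permutation test, p = 0.2, adjusted p = 0.2). Il1rap over Il1r1 was 4.67 ± 0.42 in XKO and 3.49 ± 0.48 in XWT, a difference of 1.19 without overlap (exact permutation test, p = 0.1, adjusted p = 0.125), and the difference was 0.66 on deposited FPKM plus 0.1, where the low Il1r1 values are close to the added constant.

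**Figure D4:**
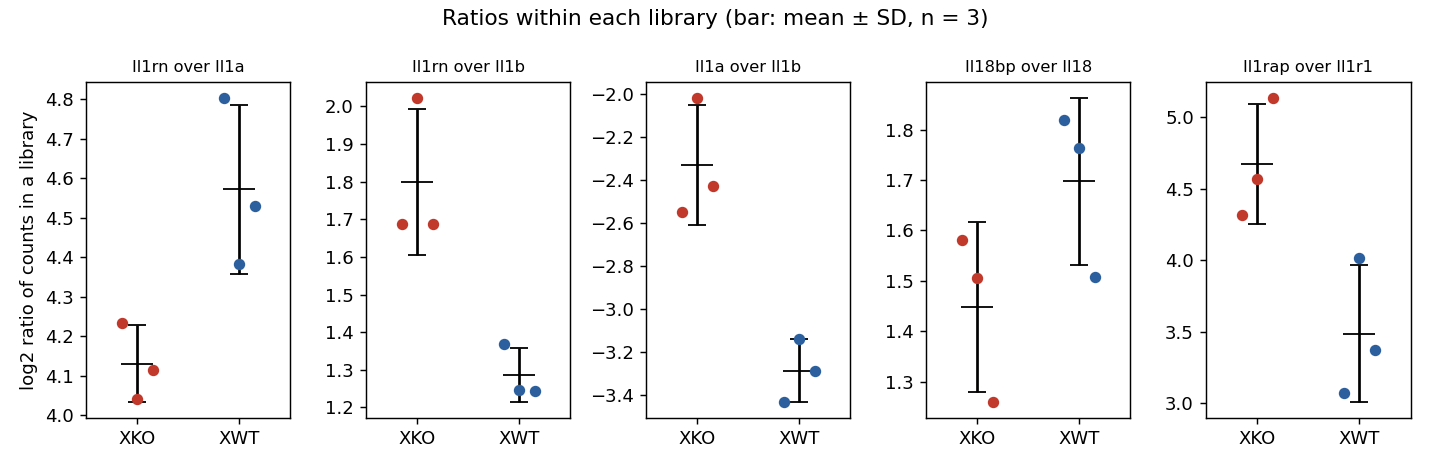
Log2 ratio of the counts of the named genes within each library (vertical axes do not start at 0 and differ between panels), with points for 3 XKO and 3 XWT libraries and bars for the mean ± SD. XKO and XWT do not overlap in 4 of the 5 panels, the exception being Il18bp over Il18. Panels that share a gene are not independent.

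Of the 10 genes, 6 lie near other genes of the family on chromosomes 1 and 2, a feature the choice of genes did not use, and the other 4 lie on chromosomes 7, 9, 16 and 19. The receptor cluster on chromosome 1 spans 478 kb, with Il1r2, Il1r1, Il1rl2, Il1rl1, Il18r1 and Il18rap in this order on the plus strand. Within it Il1rl1 fell (-1.93), and Il1r1 had a log2 fold change of -1.03 that did not pass, with no overlap between groups (edgeR unadjusted p = 0.0184). Differences between these neighbours were not tested. Il1rl2, the IL-36 receptor gene between them, had 113, 94 and 112 counts in XKO and 101, 59 and 77 in XWT, with a log2 fold change of 0.34 (edgeR adjusted p = 0.322). Il18r1, the IL-18 receptor chain that follows Il1rl1, had 0, 2 and 3 counts in XKO and 0, 0 and 2 in XWT, and Il18rap, its partner chain, had a log2 fold change of 0.09 (edgeR adjusted p = 0.871).

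On chromosome 2, Il1rn lies with other ligand genes of the family, and a stretch of 165 kb holds Il1f9 and Il1rn at its ends. Il1f9, the gene RefSeq lists also as Il36g, encodes the agonist IL-36γ and rose like Il1rn. It had 106, 138 and 79 counts in XKO, against 49, 40 and 48 counts in XWT, a change of 1.16 on the log2 scale (standard error 0.24, edgeR adjusted p = 0.0057). Leaving out XKO 2 ended this call (0.94, edgeR adjusted p = 0.0532). The protein-coding genes between them were silent or nearly so, Il1f5 and Il1f10 with no count and Il1f6 with 1 count in XKO 1. Il1f8, a ligand gene on the far side of Il1f9, had no count either.

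Beyond the 10 genes, 5 further ligand genes of the family are in the table, of which Il1f9 alone had enough counts for a test. Of 6 further receptor genes 3 were tested, and 0 were higher and 0 lower, also 0 at an unadjusted p under 0.05 and 0 by DESeq2 or limma-voom. Besides Il1rl2 these included Sigirr, which encodes an inhibitory receptor of the family, with 20, 30 and 31 counts in XKO and 20, 44 and 27 in XWT. Its log2 fold change was -0.23 (edgeR adjusted p = 0.681), and 0.12 without XWT 2.

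Downstream of the receptors, of 15 adaptor and kinase genes tested 3 were higher, 1 lower and 11 not called, with a median log2 fold change of 0.06. Among all tested genes 6.00% were higher and 7.99% lower. The ubiquitin ligase gene Peli1 had 87.0, 83.8 and 92.5 CPM in XKO, against 70.1, 59.7 and 69.4 CPM in XWT (log2 fold change 0.40, edgeR adjusted p = 0.00349). The kinase gene Irak2 rose by 0.26 and Ikbkg, which encodes the NEMO subunit of the IKK complex, by 0.28, while the kinase gene Irak4 fell by 0.25 on the log2 scale (edgeR adjusted p of 0.0159 for Irak2, 0.015 for Ikbkg and 0.0211 for Irak4). Myd88, the adaptor itself, averaged 107 CPM in XKO and 119 CPM in XWT and was not called (edgeR adjusted p = 0.199). Omitting any one of XKO 1, XKO 2 and XKO 3 left 1 higher and 0 lower genes. The lower count was also 0 with library size alone, and it was 3 without XWT 3.

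Of 10 genes of cytokine cleavage and release, 2 were higher and 0 lower (1 lower at an unadjusted p under 0.05, 0 by DESeq2 and 0 by limma-voom), with a median of 0.01. Over all tested genes 14.0% were called, 6.00% higher and 7.99% lower. The sensor gene Nlrp3 had 1217, 1114 and 1185 counts in XKO, against 763, 858 and 939 counts in XWT (log2 fold change 0.39, edgeR adjusted p = 0.00354). Casp4, the caspase that senses intracellular LPS, had 35.4, 33.9 and 36.4 CPM in XKO, against 27.4, 23.0 and 30.1 CPM in XWT (0.39, edgeR adjusted p = 0.0161), and its call ended without XKO 1, XKO 2 or XKO 3. Casp1, whose product cleaves IL-1β and IL-18, averaged 105 CPM in XKO and 93.6 CPM in XWT and did not pass (edgeR adjusted p = 0.129). Without XWT 3, 1 gene of this list was lower.

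Of 12 genes that IL-1 and Toll-like receptors both induce through NF-kB, 10 were tested, and 5 were higher and 0 lower (1 lower at an unadjusted p under 0.05, 0 by DESeq2 and 0 by limma-voom, 1 without XWT 3), with a median of 0.26. For comparison, 6.00% of all tested genes were higher and 7.99% lower. This list, like the others, was chosen with earlier results of these data known, which limits that comparison. The chemokine gene Cxcl2 had 25.2, 26.5 and 28.7 CPM in XKO, against 13.9, 9.32 and 13.0 CPM in XWT (log2 fold change 1.15). Tnf rose by 0.74, the prostaglandin synthase gene Ptgs2 by 0.91 and the superoxide dismutase gene Sod2 by 0.36 on the log2 scale (edgeR adjusted p of 4.42e-05 for Cxcl2, 1.68e-05 for Tnf, 0.000678 for Ptgs2 and 0.00324 for Sod2). Cxcl1, a chemokine gene like Cxcl2, was the other called gene, with a log2 fold change of 1.33 (edgeR adjusted p = 0.00354). The 5 tested genes not called had smaller changes, at 0.03 for Nfkbia, 0.06 for Zc3h12a, 0.08 for Ccl2, 0.17 for Tnfaip3 and -0.20 for Nfkbiz. For Nfkbiz every XKO library was lower than every XWT library (edgeR adjusted p = 0.0584). Il6 had 1 to 5 counts in XKO and 6 to 11 in XWT and was too low for the test.

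**Figure D5:**
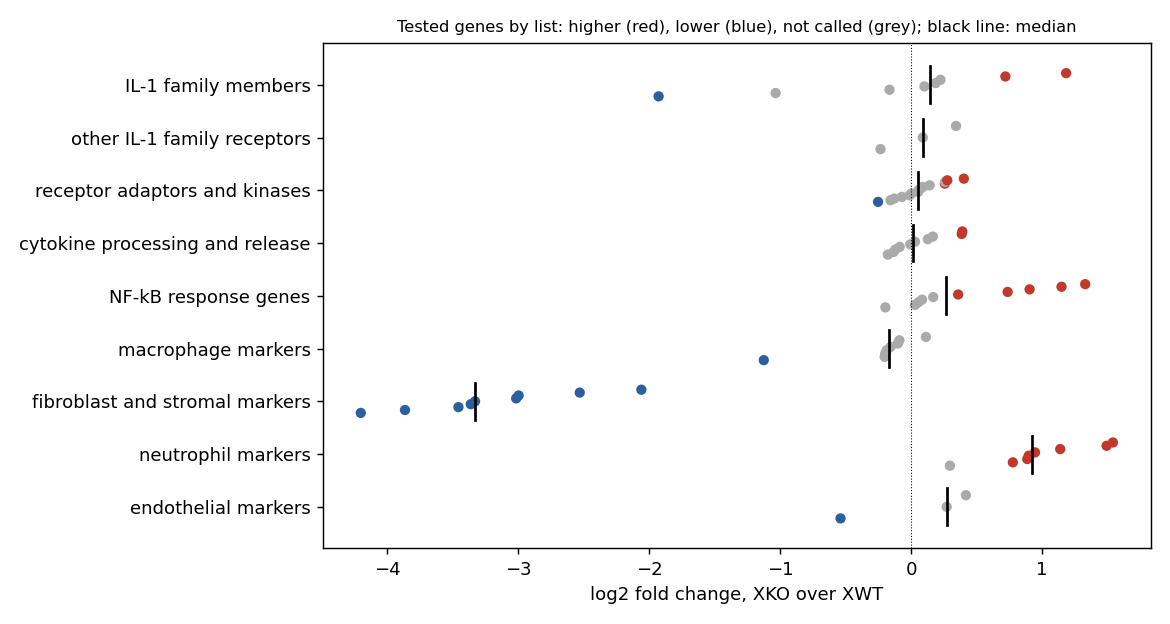
Log2 fold change of XKO over XWT (horizontal axis) of every tested gene by list, for lists with at least 3 tested genes, with red for higher, blue for lower, grey for not called and a black line at the median. The IL-1 family genes spread from -1.93 to 1.18 around a median of 0.14, the signalling and processing lists lie near 0, and the stromal markers lie between -4.20 and -2.06.

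Genes used as markers of other cell types differed between the same libraries, where 6.00% of all tested genes were higher and 7.99% lower. Which cells these reads came from was not tested. All 9 tested fibroblast and stromal markers (of 12 in the list) were lower and 0 higher (0 higher at an unadjusted p under 0.05 and 0 by DESeq2 or limma-voom), with a median of -3.33. The summed level of the list was 63.9 to 78.1 CPM in XKO and 668 to 770 CPM in XWT, led by Col1a1 with 27.5 CPM in XKO and 277 CPM in XWT. Lum, Thy1 and Tagln were too low for the test. Lum and Thy1 had 0 to 4 counts per library. Tagln had 10, 5 and 7 counts in XKO and a similar 16, 5 and 7 in XWT. Il1rl1 (-1.93) and Il1r1 (-1.03) are lower in the same libraries, and both receptors are also known from stromal cells. The part of these cells in the 2 values was not tested. Neutrophil markers were higher in 7 of 8 tested genes (6 by DESeq2 and 7 by limma-voom) and lower in 0 (median 0.92). Their summed level was 61.2 to 65.0 CPM in XKO and 30.8 to 39.8 CPM in XWT. It was led by Lcn2, with 25.7 CPM in XKO and 13.4 CPM in XWT, followed by Mmp8. Mpo was not called (log2 fold change 0.30, edgeR adjusted p = 0.643). Elane had 8, 5 and 10 counts in XKO and 12, 2 and 3 in XWT and was too low for the test. Ly6g, a defining marker, had no count. Il1a, Il1rn and Il1f9 are higher in the same libraries, and neutrophils also express Il1rn. Their part in these values was not tested.

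Markers of mast cells, which carry ST2, summed to 1.60 to 2.48 CPM in XKO and 1.47 to 2.45 CPM in XWT, with no count for the defining genes Ms4a2, Tpsb2 and Mcpt4 and no call among 2 tested genes. Among markers of T cells and innate lymphoid cells, Cd3e and Cd3d had no count, and the summed level of 119 to 126 CPM in XKO and 75.8 to 95.5 CPM in XWT came mainly from Il7r, the 1 gene of 2 tested that was higher. Endothelial markers summed to 10.6 to 11.8 CPM in XKO and 12.7 to 13.3 CPM in XWT, and Pecam1, the most abundant of them, was lower. The other 2 of 3 tested genes had positive values and did not pass, Kdr with a log2 fold change of 0.42 and Cdh5 with 0.27. None of the 5 hepatocyte markers in the table (Alb, Apoa1, Ttr, Serpina1a and Fgb) had a count in any library.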

How the data were processed

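RNA sequencing of 6 libraries (3 XKO, 3 XWT, grouped by their titles) was analysed from 1 table. Trizol and a NEBNext Ultra kit were used, per the labels' protocols. The submitters' processing notes list mm8, mm10 and Bowtie 0.12.2 without saying what each was for. The sources used here do not give the counting program, its annotation or its strand setting. The authors deposited raw counts per gene, per the file headers, and FPKM, which follow count over gene length exactly within a library. The authors also deposited scaled group means (a signal), log2 fold changes and p-values, which entered no test. Gene coordinates of the 10 genes match GENCODE M21 (GRCm38).

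Genes passing filterByExpr (14333; 29101 had no count) were tested with edgeR 4.0.16 in R 4.3.3, with TMM scaling and a robust quasi-likelihood fit with 4 residual degrees of freedom. The Benjamini-Hochberg adjustment covered all tested genes. Standard errors are the log2 fold change over the square root of F. CPM use all counts of a library times its TMM factor. The biological coefficient of variation was 0.0865, and intervals and the limit of 3 counts for a count of 0 cover counting or model error only. Ratios used counts plus 0.5 and an exact permutation test (scipy 1.17.1). The code was tested on simulated data. Alternatives used DESeq2 1.42.0, limma-voom (limma 3.58.1), other scalings, filters and thresholds, a replicate block and the removal of each library. The genes, lists and tests were chosen with earlier results of these data known. Named genes are the 10, Xbp1, up to 4 called genes per pathway list (or 2 where none was called) and up to 3 markers per cell type. Myd88, Casp1, Il6, Cxcl1, Nfkbia, Zc3h12a, Ccl2, Tnfaip3, Nfkbiz, Il18r1, Il18rap, Lum, Thy1, Tagln, Mpo, Elane and the genes listed at 0 were named after their values were seen.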

Additional observations from a re-analysis of the deposited data

How the results depend on the processing

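The 2 higher genes (Il1a, Il1rn) and the 1 lower gene (Il1rl1) of the 10 were called under each of the 16 alternatives, and with each library left out in turn their log2 fold changes were 1.12 to 1.23, 0.64 to 0.86 and -2.38 to -1.68. Over all genes, 860 were higher and 1145 lower, a share of 42.89% higher. With library size alone 1158 were higher and 749 lower, and the median of all genes moved to 0.0695. With a threshold of 0.01, 262 were higher and 544 lower, and with at least 1.5-fold 268 and 496. Leaving out 1 library gave 274 to 2073 higher and 532 to 2164 lower genes, the highest of both without XWT 3, and 2 higher and 1 lower of the 10 each time. Of the values not called, leaving out 1 library turned the sign of Il18 (-0.016 without XKO 3, in a range of -0.016 to 0.20) and of Sigirr (0.12 without XWT 2, in a range of -0.42 to 0.12); the cause was not tested. The stricter filter left Il1r1 untested. All 5 ratios kept their sign. Libraries with the same number did not deviate together (correlations -0.0803, -0.0271 and -0.0546), and a replicate block gave 1068 higher and 1127 lower genes, with the same calls among the 10. Depth limits Il33, Il1r2, Il1r1 and Il1rl1 most.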
